A study of Mus musculus with 24 samples.

Results

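Kit, Stra8, Sohlh1, Sohlh2, Dmrt1 and Dmrtb1 are 6 regulators of the step at which undifferentiated spermatogonia become KIT+ differentiating spermatogonia. They were taken by gene name, and all 6 were found in both tables, of 23177 genes for the Zbtb16 set and 21688 for the Sox3 set. RNA was sequenced from spermatogonia of mice at postnatal day 7, sorted with magnetic beads for THY1, a mark of undifferentiated spermatogonia (THY1+ uSPG), or for KIT (KIT+ dSPG). The 24 libraries formed 8 groups of 3 libraries. The Zbtb16 set held WT and Zbtb16 null (luxoid, Zbtb16 lu/lu) spermatogonia of both fractions. The Sox3 set held WT and Sox3 cKO spermatogonia of both fractions, in which a floxed Sox3 allele was removed by Ddx4-Cre, a Cre driven by a germ cell promoter, so that somatic cells kept the gene. All groups were on the C57BL/6J background, and the testes of 3 mice were pooled for each isolation.

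Spermatogonia commit to differentiation in response to retinoic acid and then depend on the receptor tyrosine kinase KIT, whose ligand is made by Sertoli cells. STRA8 is induced by retinoic acid and later serves as a transcription factor of meiotic entry. SOHLH1 and SOHLH2 are basic helix-loop-helix factors of spermatogonia and bind E-boxes. DMRT1 is a DM-domain factor that restrains meiotic entry in spermatogonia and is also made by Sertoli cells. DMRTB1 (also known as DMRT6) is a DM-domain factor of later differentiating spermatogonia. Kit is also expressed by Leydig cells and mast cells, so that its RNA in a sorted fraction need not come from germ cells alone.

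The members lie on separate chromosomes of the GRCm38 (mm10) assembly, and in the GENCODE M21 annotation none overlaps another gene. Kit (ENSMUSG00000005672) spans chromosome 5 from 75574916 to 75656722 with 21 exonic blocks, and Stra8 (ENSMUSG00000029848) spans chromosome 6 from 34920163 to 34939344 with 10. Sohlh1 (ENSMUSG00000059625) spans chromosome 2 from 25842995 to 25847248, and Sohlh2 (ENSMUSG00000027794) spans chromosome 3 from 55182028 to 55209957. Dmrt1 (ENSMUSG00000024837) spans chromosome 19 from 25505618 to 25604329, and Dmrtb1 (ENSMUSG00000028610) spans chromosome 4 from 107676290 to 107684230. Sohlh1 and Dmrtb1 are on the minus strand and the other members are on the plus strand.

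RefSeq promoters (GRCm38.p6) were at hand for 5 of the 6 members, all but Dmrt1. The 250 bases before the RefSeq start are shown for 4 of them, because Kit and Dmrtb1 moved together across the libraries while Stra8 and Sohlh1 were the members called lower in Sox3 cKO. Each is written 5′ to 3′ on the strand of the gene, and where a gene had more than 1 RefSeq start the one nearest to the GENCODE 5′ end was taken. Capitals mark the E-box CANNTG, the nuclear receptor motif AGGTCA, which retinoic acid receptors recognise, and ACANTGT, the core of the sequence bound by DMRT1, searched on both strands.
Kit (chr5:75574737-75574986, plus strand): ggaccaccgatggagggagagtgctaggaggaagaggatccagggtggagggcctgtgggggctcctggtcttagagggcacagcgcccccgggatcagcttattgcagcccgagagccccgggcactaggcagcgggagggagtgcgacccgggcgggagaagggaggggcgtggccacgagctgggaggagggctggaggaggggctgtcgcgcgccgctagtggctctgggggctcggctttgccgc
Dmrtb1 (chr4:107684231-107684480, minus strand): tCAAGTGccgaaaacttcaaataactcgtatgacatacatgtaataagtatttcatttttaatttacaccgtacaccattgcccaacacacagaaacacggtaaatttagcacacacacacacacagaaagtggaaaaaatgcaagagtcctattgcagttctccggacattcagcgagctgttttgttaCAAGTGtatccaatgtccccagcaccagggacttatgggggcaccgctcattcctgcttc
Stra8 (chr6:34920698-34920947, plus strand): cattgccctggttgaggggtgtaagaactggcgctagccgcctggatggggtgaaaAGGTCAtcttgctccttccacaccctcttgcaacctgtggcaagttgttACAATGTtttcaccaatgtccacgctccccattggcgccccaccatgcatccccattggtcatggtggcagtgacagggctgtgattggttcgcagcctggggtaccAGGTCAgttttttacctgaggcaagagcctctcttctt
Sohlh1 (chr2:25847249-25847498, minus strand): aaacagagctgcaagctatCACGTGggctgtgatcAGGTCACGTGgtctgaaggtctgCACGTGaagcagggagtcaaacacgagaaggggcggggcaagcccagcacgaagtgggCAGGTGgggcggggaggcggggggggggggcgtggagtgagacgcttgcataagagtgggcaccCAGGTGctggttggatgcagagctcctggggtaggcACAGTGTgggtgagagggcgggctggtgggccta

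The Stra8 window held 2 matches to AGGTCA, whose first bases are at -194 and -38 from the start, and 1 match to ACANTGT at -145. The RefSeq start of Stra8 lies 785 bases from the GENCODE 5′ end, so the window is not the sequence before every annotated start. The Sohlh1 window held 5 E-boxes, of which 3 were the palindrome CACGTG, and 1 match each to AGGTCA and ACANTGT. The AGGTCA match of Sohlh1 overlaps 1 of the CACGTG matches. The Dmrtb1 window held 2 E-boxes, the Sohlh2 window (not shown) held 1, and the Kit window held none of the 3 motifs. Among 32536 RefSeq promoter windows of this length, 66.2% held CANNTG, 6.04% held CACGTG, 14.0% held AGGTCA and 6.29% held ACANTGT. A match is a description of the letters and not evidence that a factor binds there.

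The values are FPKM, read numbers scaled to the length of the gene and to the reads of the library. The Zbtb16 libraries held an estimated 25940000 to 35120000 reads. In the Sox3 set the replicate 1 libraries held 28250000 to 31870000 reads and those of replicates 2 and 3 held 11010000 to 14910000 reads. Every member was covered well: the fewest reads estimated for a member in a library were 84, for Dmrtb1 in Sox3 cKO THY1+ uSPG. In the Zbtb16 set Zbtb16 RNA was 52.1 ± 8.93 FPKM in WT THY1+ uSPG and 17.1 ± 1.33 in null THY1+ uSPG (mean ± SD, n = 3, as for all such values below). In the Sox3 set Sox3 RNA was at most 0.0820 FPKM in the cKO libraries and at least 6.28 in the WT libraries.

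The Sox3 WT libraries stand apart by their sorting markers. Thy1, which codes for the surface protein used to sort uSPG, was at 0.213 to 0.254 FPKM in the 3 that carry the THY1+ label and at 3.59 to 4.06 FPKM in the 3 that carry the KIT+ label. In the other groups THY1+ libraries held 3.29 to 5.26 FPKM of Thy1 and KIT+ libraries held 0.156 to 0.666 FPKM. The 6 Sox3 WT libraries are therefore called by their labels, and no direction between their fractions is read as one between uSPG and dSPG. Comparisons of Sox3 cKO with WT are given as the mean over both fractions, a value that does not depend on which WT group is which, and between groups with like Thy1 levels, a choice made after these levels were seen.

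**Figure D1:**
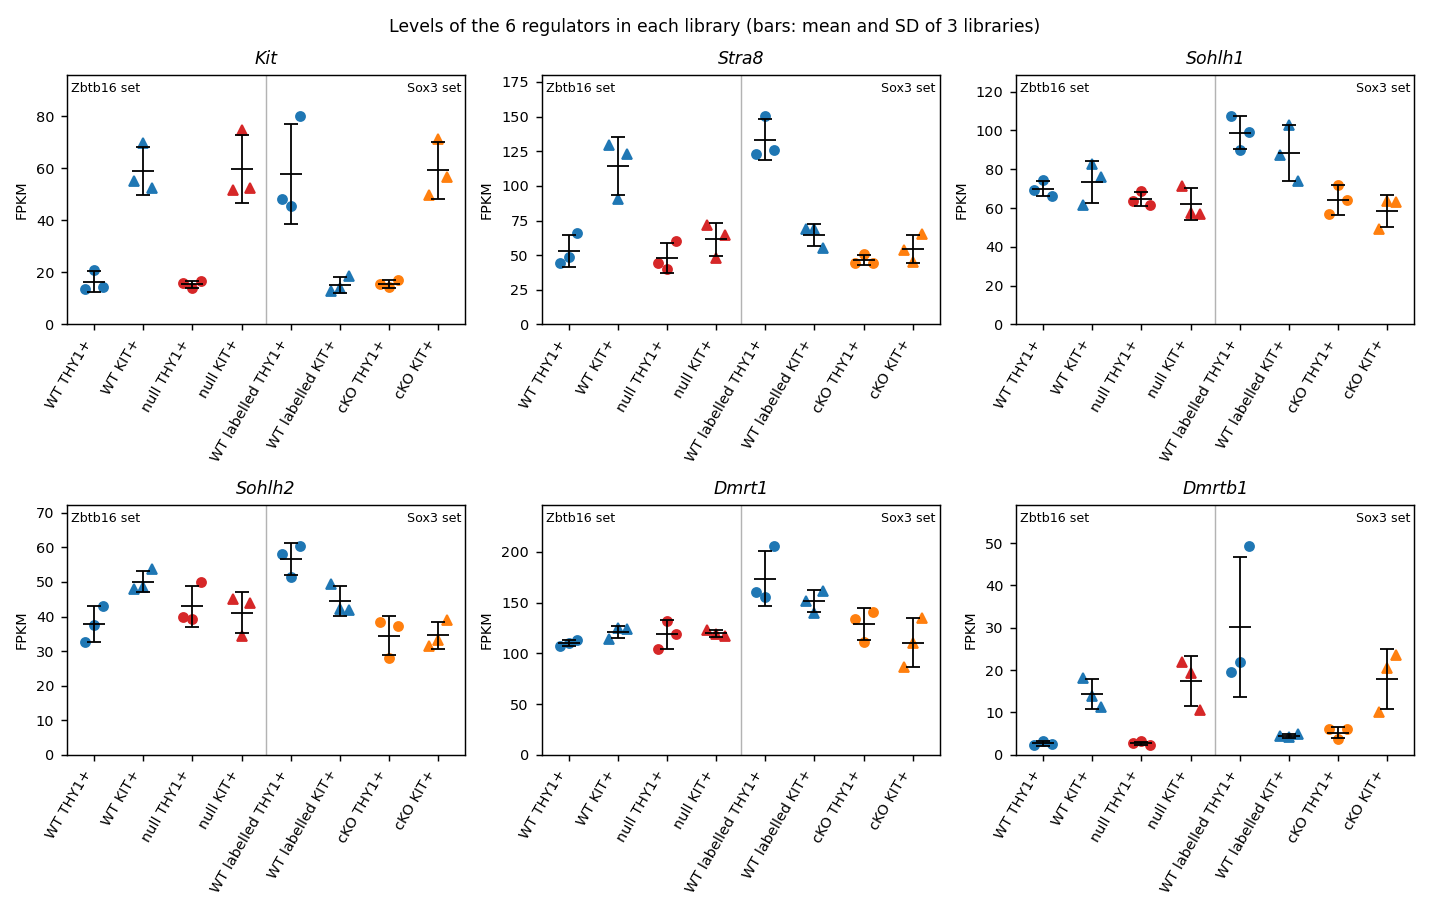
FPKM of each regulator (vertical axis, from 0) in each library of 8 groups (horizontal axis; Zbtb16 set left of the grey line, Sox3 set right). Points are libraries (circles labelled THY1+, triangles labelled KIT+; blue WT, red Zbtb16 null, orange Sox3 cKO), and black bars are the mean and SD of 3 libraries. Kit and Dmrtb1 are high in the same 4 groups, while Stra8 is above 90 FPKM only in the WT KIT+ libraries of the Zbtb16 set and the Sox3 WT libraries labelled THY1+.

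Kit, the receptor itself, was at 13.8, 21.1 and 14.6 FPKM in the WT THY1+ uSPG of the Zbtb16 set and at 55.0, 69.7 and 52.5 FPKM in WT KIT+ dSPG. In Zbtb16 null it was at 16.0, 14.0 and 16.6 FPKM in THY1+ uSPG and at 51.7, 74.8 and 52.6 FPKM in KIT+ dSPG. The fractions did not overlap in either genotype, and the genotypes overlapped within each fraction. The difference between fractions was 3.601-fold in WT (log2 change 1.85, SE 0.187, adjusted p = 3.15e-05 in limma) and 3.78-fold in null (log2 change 1.92, SE 0.187, adjusted p = 1.86e-05). KIT protein was used for the sort, so this difference checks the fractions more than it describes them. A gene is said here to be called, or to have risen or fallen, when limma gave it an adjusted p of at most 0.05 (Benjamini-Hochberg over all genes tested) and a change of at least 1.5-fold on the scale of log2(FPKM + 0.1).

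Without Zbtb16, Kit RNA differed little from WT within a fraction. The log2 change from WT to null was -0.07 in THY1+ uSPG (95% interval -0.48 to 0.34, adjusted p = 0.860 in limma) and 0.01 in KIT+ dSPG (-0.40 to 0.42, adjusted p = 0.993). In the Sox3 set Kit was at 15.5, 14.2 and 17.1 FPKM in cKO THY1+ uSPG and at 49.9, 71.4 and 56.7 FPKM in cKO KIT+ dSPG, a 3.75-fold difference (log2 change 1.91, SE 0.217, adjusted p = 6.15e-05). Among Sox3 WT libraries Kit was at 48.2, 45.6 and 80.1 FPKM under the THY1+ label and at 12.97, 14.04 and 18.8 FPKM under the KIT+ label, the reverse of what the labels say. Averaged over fractions, the log2 change of Kit from Sox3 WT to cKO was 0.06 (-0.28 to 0.39, adjusted p = 0.817).

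Leydig cell markers moved with Kit. The summed FPKM of 6 Leydig cell markers, all of them called higher in KIT+ than in THY1+ in both Zbtb16 genotypes, was 83.1 to 119.1 in WT THY1+ uSPG and 1215 to 2272 in WT KIT+ dSPG. It was 2045 to 3122 in Zbtb16 null KIT+ dSPG, 2493 to 4941 in Sox3 cKO KIT+ dSPG and 1239 to 2004 in the Sox3 WT libraries labelled THY1+. Mast cell markers lay on the other side: the sum over the 8 measured of 9 was 29.1 to 51.6 FPKM in WT THY1+ uSPG and 3.10 to 4.49 in WT KIT+ dSPG, with 7 called lower and 1 higher in the latter. The share of Kit RNA that came from Leydig cells was not tested. Fewer cells of a type and less RNA per cell cannot be told apart in these pooled libraries, for Kit or for any other member.

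Dmrtb1 followed Kit more closely than any other member. It was at 2.23, 3.34 and 2.50 FPKM in the WT THY1+ uSPG of the Zbtb16 set and at 18.03, 13.8 and 11.2 FPKM in WT KIT+ dSPG. In Zbtb16 null it was at 2.68, 3.16 and 2.41 FPKM in THY1+ uSPG and at 22.0, 19.3 and 10.7 FPKM in KIT+ dSPG. The fractions stood apart in both genotypes, and Dmrtb1 rose 5.16-fold from THY1+ to KIT+ in WT (log2 change 2.37, SE 0.265, adjusted p = 6.60e-05 in limma) and 5.89-fold in null (log2 change 2.56, SE 0.265, adjusted p = 2.73e-05). Of the 6 members it had the largest difference between fractions in both genotypes and the lowest level in THY1+ uSPG.

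In Sox3 cKO, Dmrtb1 was at 6.01, 3.66 and 6.05 FPKM in THY1+ uSPG and at 10.01, 20.4 and 23.6 FPKM in KIT+ dSPG, a rise of 3.26-fold (log2 change 1.71, SE 0.374, adjusted p = 0.00542 in limma). Under the THY1+ label the Sox3 WT libraries held 19.4, 21.9 and 49.2 FPKM of Dmrtb1, the last being the library with the most Kit RNA. Under the KIT+ label they held 4.40, 4.09 and 4.99 FPKM. Neither mutant was called against WT: the log2 change of Dmrtb1 was 0.04 in Zbtb16 null THY1+ uSPG (95% interval -0.54 to 0.62, adjusted p = 0.944), 0.23 in null KIT+ dSPG (-0.35 to 0.81, adjusted p = 0.675) and -0.26 in Sox3 cKO over both fractions (-0.84 to 0.32, adjusted p = 0.503).

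Stra8 was called between fractions in WT but in neither mutant. It was at 44.1, 48.8 and 66.0 FPKM in the WT THY1+ uSPG of the Zbtb16 set and at 129.5, 90.7 and 123.2 FPKM in WT KIT+ dSPG, so that the fractions did not overlap. Stra8 rose 2.17-fold from THY1+ to KIT+ (log2 change 1.11, SE 0.214, adjusted p = 0.00258 in limma). In Zbtb16 null it was at 44.0, 39.8 and 60.3 FPKM in THY1+ uSPG and at 71.6, 48.2 and 64.4 FPKM in KIT+ dSPG. These null fractions overlapped, and the log2 change between them was 0.36 (95% interval -0.11 to 0.83, adjusted p = 0.213).

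Within KIT+ dSPG, every Zbtb16 null library held less Stra8 RNA than every WT library. The log2 change was -0.90 (SE 0.214, 95% interval -1.37 to -0.43), with an unadjusted p of 0.00137 in limma that became 0.133 after adjustment over all genes, so Stra8 was not called. In THY1+ uSPG the genotypes overlapped (log2 change -0.14, -0.61 to 0.33, adjusted p = 0.720). The test of the difference itself, the genotype by fraction interaction, gave -0.76 on the log2 scale (-1.42 to -0.10, unadjusted p = 0.0286, adjusted p = 0.176). After adjustment in this fit the fraction difference of Stra8 in null was not shown to differ from that in WT. That outcome depended on the model. With the replicate number as a block in the fit, Stra8 was called in null KIT+ dSPG against WT (adjusted p = 0.0225 in limma). In the interaction it was called too (adjusted p = 0.0342).

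Stra8 was high in 1 group of the Sox3 set too. Under the THY1+ label, where Kit was high, the WT libraries held 123.3, 150.2 and 126.0 FPKM, and under the KIT+ label, where Kit was low, 69.05, 69.1 and 55.5 FPKM. In Sox3 cKO it was at 44.1, 50.5 and 44.6 FPKM in THY1+ uSPG and at 54.0, 45.0 and 65.2 FPKM in KIT+ dSPG, and these overlapped (log2 change 0.22, 95% interval -0.10 to 0.54, adjusted p = 0.277 in limma). Averaged over both fractions Stra8 was lower in cKO than in WT by 1.84-fold (log2 change -0.88, SE 0.104, adjusted p = 0.00162), and in the shallower replicates 2 and 3 alone the log2 change was -0.86 (adjusted p = 0.0419). Between the groups with low Thy1, cKO KIT+ against WT labelled THY1+, the log2 change of Stra8 was -1.29 (SE 0.146, adjusted p = 0.00162). Between the groups with high Thy1 it was -0.47 (-0.79 to -0.15, adjusted p = 0.276), which was not called. The difference of these 2 changes was -0.82 (unadjusted p = 0.00204, adjusted p = 0.184).

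**Figure D2:**
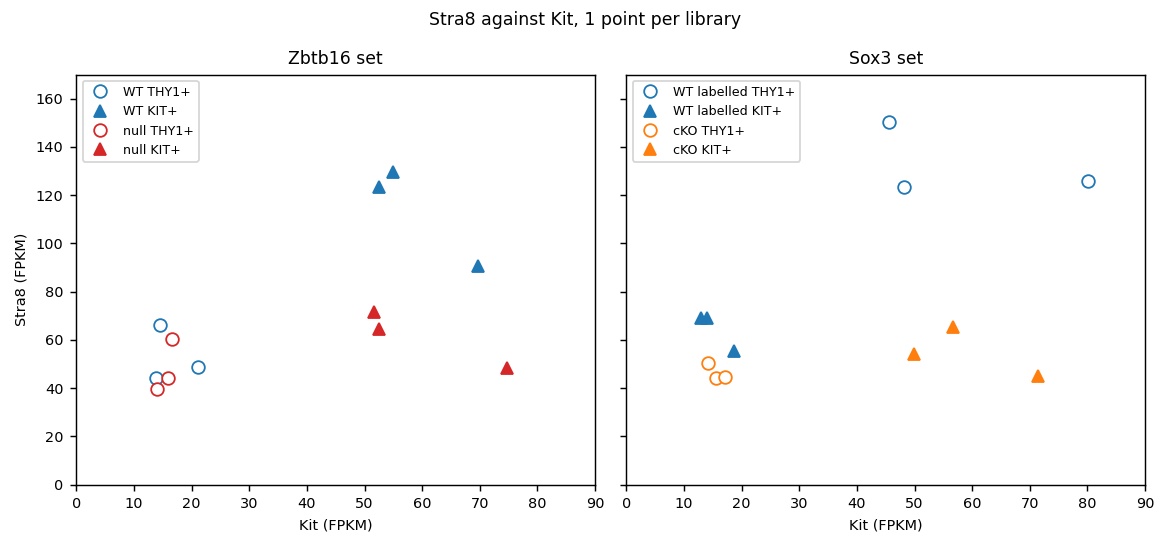
Stra8 (vertical axis, FPKM) against Kit (horizontal axis, FPKM), 1 point per library, for the Zbtb16 set (left) and the Sox3 set (right); open circles are labelled THY1+, filled triangles KIT+, blue WT, red Zbtb16 null and orange Sox3 cKO. Among libraries with Kit above 40 FPKM, the mutant ones lie at 45.0 to 71.6 FPKM of Stra8 and the WT ones at 90.7 to 150.2 FPKM.

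Set beside Kit in the same library, Stra8 was lowest in the mutant KIT+ fractions. The ratio of Stra8 FPKM to Kit FPKM was 2.35, 1.30 and 2.35 in the WT KIT+ dSPG of the Zbtb16 set and 1.38, 0.644 and 1.22 in null KIT+ dSPG, so that 1 WT library lay within the range of the null. It was 1.08, 0.631 and 1.150 in Sox3 cKO KIT+ dSPG and 1.57 to 3.30 in the Sox3 WT libraries labelled THY1+, which did not overlap. In THY1+ uSPG the mean ratio was 3.34 in WT, 3.08 in Zbtb16 null and 3.002 in Sox3 cKO.

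Germ cell markers were also lower in Sox3 cKO KIT+ dSPG than in the Sox3 WT libraries. In KIT+ dSPG of the Zbtb16 set, null and WT overlapped. The geometric mean FPKM of 8 germ cell markers, among them Ddx4 and Dazl, was 88.3 to 95.9 in the WT KIT+ dSPG of the Zbtb16 set and 73.0 to 90.5 in null KIT+ dSPG, but 97.2 to 98.97 in WT THY1+ uSPG and 116.2 to 123.3 in null THY1+ uSPG. It was 92.7 to 102.0 in Sox3 cKO THY1+ uSPG and 56.9 to 85.8 in cKO KIT+ dSPG, against 95.7 to 119.3 over the 6 Sox3 WT libraries. Of these 8 markers 5 were called lower in null KIT+ than in null THY1+, and none was called between WT and null within a fraction. When log2 values were taken relative to this germ cell mean, Stra8 was called higher in KIT+ than in THY1+ in Zbtb16 null (log2 change 0.94, adjusted p = 0.00122) and in Sox3 cKO (0.65, adjusted p = 0.0468), where the median over all genes stood at 0.54 and 0.40. Under the same scaling Stra8 was at -0.70 from WT to null in KIT+ dSPG, at -0.27 in the interaction and at -0.54 from Sox3 WT to cKO over both fractions (adjusted p = 0.0218, under 1.5-fold), while the median of all genes stood at 0.20, 0.49 and 0.37. The part of germ cell content in the Stra8 result was not tested beyond this scaling.

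Sohlh1 RNA was alike in both fractions of the Zbtb16 set. It was at 69.2, 74.3 and 66.4 FPKM in WT THY1+ uSPG and at 61.4, 82.6 and 76.0 FPKM in WT KIT+ dSPG, where the groups overlapped (log2 change 0.06, 95% interval -0.21 to 0.33, adjusted p = 0.768 in limma). In Zbtb16 null it was at 61.5 to 68.7 FPKM in THY1+ uSPG and at 56.9 to 71.4 FPKM in KIT+ dSPG, and the log2 changes from WT were -0.12 and -0.24 with adjusted p = 0.600 and 0.337.

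Sohlh1 in the Sox3 set was ordered by genotype rather than by fraction. The 6 WT libraries held 74.1 to 107.3 FPKM and the 6 cKO libraries held 49.1 to 72.0 FPKM, with no overlap. Averaged over fractions Sohlh1 was lower in cKO by 1.52-fold (log2 change -0.60, SE 0.106, adjusted p = 0.00382 in limma), a change just past the 1.5-fold limit. It fell short of that limit when any of 4 libraries was left out (WT labelled THY1+ replicate 1, WT labelled KIT+ replicate 2, cKO THY1+ replicate 1 or cKO KIT+ replicate 1), at -0.54 to -0.57, with the adjusted p at 0.0109 or below. In replicates 2 and 3 alone it was -0.47 (adjusted p = 0.0692 in limma). Relative to the germ cell mean the log2 change of Sohlh1 was -0.26 (adjusted p = 0.126), against a median of all genes of 0.37. Between the 2 fractions of Sox3 cKO, Sohlh1 differed by -0.14 on the log2 scale (-0.46 to 0.19, adjusted p = 0.533).

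Sohlh2, the partner of SOHLH1, was at 32.5, 37.7 and 43.0 FPKM in the WT THY1+ uSPG of the Zbtb16 set and at 48.04, 48.5 and 53.6 FPKM in WT KIT+ dSPG. These groups did not overlap, and the log2 change of 0.41 (SE 0.139, adjusted p = 0.0437 in limma) stayed under 1.5-fold. In Zbtb16 null it was at 39.2 to 49.9 FPKM in THY1+ uSPG and at 34.3 to 45.0 FPKM in KIT+ dSPG, which overlapped (log2 change -0.07, 95% interval -0.37 to 0.24, adjusted p = 0.743). From WT to null the log2 change of Sohlh2 was 0.19 in THY1+ uSPG and -0.29 in KIT+ dSPG (adjusted p = 0.435 and 0.305), and the interaction was -0.48 (unadjusted p = 0.0319, adjusted p = 0.183). Relative to the germ cell mean this interaction was 0.01, so its sign rested on the scaling.

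Sohlh2 in the Sox3 set was at 51.3 to 60.3 FPKM in WT labelled THY1+, at 41.8 to 49.4 in WT labelled KIT+, at 27.9 to 38.4 in cKO THY1+ uSPG and at 31.5 to 39.0 in cKO KIT+ dSPG. Every WT library was above every cKO library. The log2 change of Sohlh2 averaged over fractions was -0.54 (SE 0.0976, adjusted p = 0.00409 in limma), a change of 1.46-fold that was not called. Without cKO THY1+ replicate 1 or without cKO KIT+ replicate 3 it was -0.59 and was called. The change of Sohlh2 relative to the germ cell mean was -0.20 (adjusted p = 0.241 in limma).

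Dmrt1 had the highest mean FPKM of the 6 members in each of the 8 groups. It was at 107.4, 110.1 and 112.9 FPKM in WT THY1+ uSPG, at 113.9, 125.1 and 123.7 in WT KIT+ dSPG, at 104.5, 132.4 and 119.1 in null THY1+ uSPG and at 123.0, 119.4 and 116.8 in null KIT+ dSPG. In the 4 comparisons of fractions and genotypes the log2 change of Dmrt1 was -0.01 to 0.13, with 95% intervals between -0.22 and 0.34, and the interaction was -0.11 (-0.41 to 0.18). Relative to the germ cell mean, Dmrt1 was called higher in null KIT+ than in null THY1+ (log2 change 0.61, adjusted p = 0.00124), with a median of all genes of 0.54.

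Dmrt1 in Sox3 WT was at 155.6 to 205.3 FPKM under the THY1+ label and at 140.2 to 161.7 FPKM under the KIT+ label. It was at 110.9 to 141.1 FPKM in cKO THY1+ uSPG and at 86.4 to 135.1 FPKM in cKO KIT+ dSPG. Averaged over fractions the log2 change of Dmrt1 was -0.45 (SE 0.120, adjusted p = 0.0204 in limma), a change of 1.37-fold that was not called. Relative to the germ cell mean it was -0.10 (adjusted p = 0.496). Sertoli cells also express Dmrt1, and the summed FPKM of their measured markers was 132 to 240 over the 6 Sox3 WT libraries, 139 to 187 in cKO THY1+ uSPG, which lay within the WT range, and 332 to 435 in cKO KIT+ dSPG, which lay above it. Of the 9 measured Sertoli cell markers 3 were called higher in cKO over both fractions and none lower.

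Counted together, 3 of the 6 members (Kit, Stra8 and Dmrtb1) were called higher in KIT+ than in THY1+ in WT of the Zbtb16 set, where 21.2% of all 22374 genes tested were called and 7.21% were called higher. In Zbtb16 null 2 of 6 (Kit and Dmrtb1) were called higher, with 29.2% of all genes called and 13.2% called higher. In Sox3 cKO the same 2 genes were called higher, with 22.7% of 21212 genes called and 10.5% called higher. KIT protein was used for the sort, so a call of Kit was built into these counts. Besides Kit, only Dmrtb1 was called in null and in cKO, and Stra8 and Dmrtb1 in WT. Between the WT fractions of the Sox3 set as labelled, 3 of 6 (Kit, Stra8 and Dmrtb1) were called, lower in libraries labelled KIT+ (19.7% of genes called and 6.53% called lower). The log2 changes there were -1.89 for Kit (adjusted p = 6.81e-05 in limma), -1.04 for Stra8 (adjusted p = 0.000307) and -2.60 for Dmrtb1 (adjusted p = 0.000387).

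**Figure D3:**
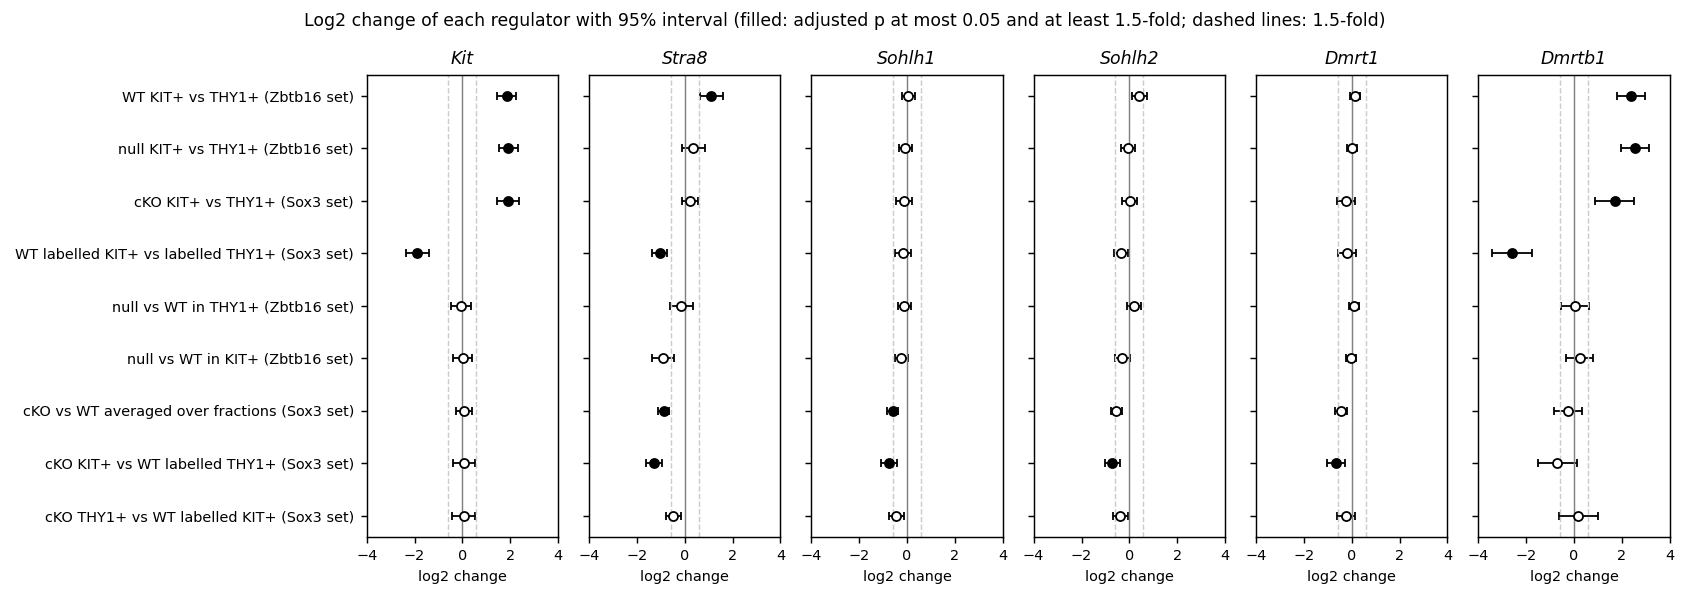
Log2 change (horizontal axis, scale of log2(FPKM + 0.1)) of each regulator in 9 comparisons (rows), with 95% intervals; filled points passed an adjusted p of 0.05 and 1.5-fold, and dashed lines mark 1.5-fold. In the 3 comparisons of KIT+ with THY1+ from groups whose markers follow their labels, Kit lies at 1.85 to 1.92 and Dmrtb1 at 1.71 to 2.56, while Stra8 lies at 1.11 in WT, 0.36 in null and 0.22 in cKO.

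Between genotypes the counts were lower. From WT to Zbtb16 null, 0 of the 6 members were called in THY1+ uSPG, where 3.98% of genes were called, and 0 of 6 in KIT+ dSPG, where 0.259% were called. The interaction called 0 of 6, with 0.0313% of genes called. The limma fit gave 5325, 3863 and 5014 genes an unadjusted p under 0.05 in these comparisons, and of the members only Stra8 was among them in KIT+ dSPG and only Stra8 and Sohlh2 in the interaction. These counts depended on the model. With the replicate number as a block in the fit, 1 of the 6 members, Stra8, was called in KIT+ dSPG and in the interaction. All genes called in KIT+ dSPG were then 513 instead of 58, and more genes were called in the interaction too. From Sox3 WT to cKO over both fractions, 2 of 6 (Stra8 and Sohlh1) were called, both lower, with 10.3% of genes called and 2.83% called lower. The shares of all genes given for each comparison are also the background of the gene lists below.

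Between the Sox3 groups with low Thy1, cKO KIT+ against WT labelled THY1+, 4 of 6 members were called lower, with 17.0% of genes called and 4.57% called lower. Their log2 changes were -1.29 for Stra8, -0.76 for Sohlh1 (adjusted p = 0.00601 in limma), -0.71 for Sohlh2 (adjusted p = 0.00559) and -0.66 for Dmrt1 (adjusted p = 0.0171). Kit stood at 0.07 and Dmrtb1 at -0.70 (95% interval -1.52 to 0.12, adjusted p = 0.192). Without cKO KIT+ replicate 1 the change of Dmrt1 was -0.50 (adjusted p = 0.0606), and without WT labelled THY1+ replicate 3 it was -0.54 (adjusted p = 0.0594). Relative to the germ cell mean 1 of the 4 was called, namely Stra8 at -0.78, with a median of all genes of 0.53. Between the groups with high Thy1 0 of 6 were called, with 0.0707% of genes called and 2793 genes at an unadjusted p under 0.05. Stra8, Sohlh1 and Sohlh2 were among the latter, all lower in cKO (unadjusted p = 0.00772, 0.0116 and 0.0194 in limma).

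The order of the groups, with ranges that overlap or stand apart, differed between the members. Kit and Dmrtb1 had a pair of low and a pair of high groups in each set, the pairs standing apart and the groups within a pair overlapping. Stra8 had 1 group apart from all others in each set, WT KIT+ dSPG in the Zbtb16 set and WT labelled THY1+ in the Sox3 set. Sohlh1 and Sohlh2 had neighbours in the order that overlapped throughout the Zbtb16 set, but both WT groups apart from both cKO groups in the Sox3 set. Neighbouring groups of Dmrt1 overlapped in both sets. How many of all genes show each of these orders was not computed, so they describe the members alone.

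Across the 12 libraries of each set some pairs of members had like correlations in both sets and others did not, as a description over libraries that share their fractions and depth. Pearson's r of log2(FPKM + 0.1) between Kit and Dmrtb1 was 0.963 over the Zbtb16 set and 0.944 over the Sox3 set. Between Stra8 and Sohlh2 it was 0.805 and 0.833. Sohlh1 and Sohlh2, whose proteins act as partners, had 0.229 and 0.770. By the smaller of its 2 values of r, the genes most like Kit were Ano1 (0.964), Tmem64 (0.962) and Gm9581 (0.961), and those most like Dmrtb1 were Rmdn3 (0.952), Scube2 (0.951) and Mlf2 (0.949). Among the genes most like Stra8 were Tpgs2 (0.937) and Nmt2 (0.920), and those most like Sohlh2 were Hells (0.956), Haus4 (0.945) and Actl6a (0.939). For Sohlh1 they included Nubp1 (0.867) and Tvp23a (0.842), and for Dmrt1 they were Dhx29 (0.814), Cirbp (0.813) and Hdgf (0.788).

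Genes around KIT signalling did not follow Kit between the WT fractions of the Zbtb16 set. Of 20 genes of the KIT ligand and its signalling, 10 were called lower and 0 higher in KIT+ than in THY1+ in WT of the Zbtb16 set, with a median log2 change of -0.58 beside -0.03 over all genes tested, of which 21.2% were called. The largest were Ptpn6, a phosphatase that limits KIT signalling (-4.33, adjusted p = 7.60e-07 in limma), and Lyn, a SRC family kinase (-3.54, adjusted p = 7.04e-06). Both are abundant in blood cells, and the summed FPKM of 9 macrophage markers was 898 to 1043 in WT THY1+ uSPG and 6.36 to 7.90 in WT KIT+ dSPG. Their part in these changes was not tested.

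In null, where 29.2% of all genes were called and 13.2% were called higher, 4 genes of the KIT list were called higher and 6 lower between fractions, among the former the ligand Kitl (1.32, adjusted p = 0.000273 in limma) and Gab2, an adaptor of receptor kinases (1.37, adjusted p = 0.000857). In Sox3 cKO the counts were 3 higher and 7 lower, with Kitl at 1.33. Kitl was at 7.68 ± 2.41 FPKM in WT THY1+ uSPG, 9.53 ± 1.05 in WT KIT+ dSPG and 13.5 ± 1.28 in null KIT+ dSPG. Sertoli cells make this ligand. The summed FPKM of their markers was 136 to 171 in WT THY1+ uSPG and 181 to 235 in WT KIT+ dSPG. It was 106 to 122 in null THY1+ uSPG and 275 to 316 in null KIT+ dSPG. Of these markers 7 were called higher and 1 lower between the null fractions. In Sox3 cKO KIT+ dSPG the sum was 332 to 435. The part of Sertoli cells in the Kitl changes was not tested. From WT to null 0 of 20 were called in KIT+ dSPG and 1 was called lower in THY1+ uSPG, Pik3r1 (-0.72, adjusted p = 0.0365). Over both fractions of the Sox3 set 3 were called higher in cKO, led by Kitl (0.92) and Gab2 (0.74).

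Of 15 genes of retinoic acid handling, upstream of Stra8, 3 were called higher and 1 lower in KIT+ than in THY1+ in WT of the Zbtb16 set (median log2 change 0.18 beside -0.03 over all genes), a share near the 21.2% of all genes called. Aldh1a1, an enzyme of retinoic acid synthesis, was at 40.0 to 57.8 FPKM in WT THY1+ uSPG and at 425 to 538 in WT KIT+ dSPG (log2 change 3.41, adjusted p = 2.12e-07 in limma). Crabp1, a retinoic acid binding protein, rose by 1.64 (adjusted p = 0.000356), and Rxrg, a retinoid receptor, fell by 1.16 (adjusted p = 0.00428). In Zbtb16 null 4 were called higher and 2 lower between fractions, with Aldh1a1 at 4.67, Cyp26b1, which breaks down retinoic acid, at 2.50, Rxrg at -2.47 and Cyp26a1 at -0.64. Of all genes 29.2% were called between the null fractions and 13.2% were called higher. Aldh1a1 is also expressed by somatic cells of the testis. Its mean was highest in Sox3 cKO KIT+ dSPG (965 FPKM) and Zbtb16 null KIT+ dSPG (707 FPKM). These groups also had the highest median sums of Leydig cell markers (3088 and 2871 FPKM) and of Sertoli cell markers (354 and 293 FPKM). The part of either cell type in the Aldh1a1 values was not tested.

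Rxrg was at 0.390 to 0.792 FPKM in WT THY1+ uSPG and at 6.12 to 7.89 FPKM in Zbtb16 null THY1+ uSPG. It was called higher in null in both fractions, by 3.26 in THY1+ uSPG (adjusted p = 4.82e-05 in limma) and by 1.95 in KIT+ dSPG (adjusted p = 0.00710). In null THY1+ uSPG Aldh1a2 was also called higher (0.74), and Cyp26c1 (-1.21) and Aldh1a1 (-0.73) were called lower, while in null KIT+ dSPG the other gene of the 15 called was Cyp26a1 (-1.08, adjusted p = 0.0246). Cyp26c1 was near the floor, with means of 0.644 FPKM in WT and 0.224 FPKM in null THY1+ uSPG. So was Rxrg in WT KIT+ dSPG, with a mean of 0.224 FPKM. Over both fractions of the Sox3 set 3 were called higher, led by Cyp26b1 (1.31) and Aldh1a3 (0.82), and 2 lower. The latter were Crabp1 (-0.90, adjusted p = 0.00162) and Rxrg (-0.86, adjusted p = 0.0473). Rxrg was near the floor in this set, with group means of 0.0625 to 0.886 FPKM. Crabp1 was at 208 to 239 FPKM in Sox3 WT labelled THY1+ and at 85.2 to 123.5 in cKO KIT+ dSPG, which did not overlap.

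Of 15 meiotic genes that act with or after STRA8, 14 were tested, and 3 were called higher and 1 lower in KIT+ than in THY1+ in WT of the Zbtb16 set, where 21.2% of all genes were called (median log2 change 0.43). Prdm9, which sets sites of meiotic recombination, rose by 1.81 (adjusted p = 0.00269 in limma) and Mei1 by 0.74 (adjusted p = 0.0211), while Spo11, which makes meiotic breaks, fell by 0.60 (adjusted p = 0.00885). In Zbtb16 null 1 was called higher (Prdm9, 1.41) and 1 lower (Spo11, -1.15) between fractions, and in Sox3 cKO 1 was called lower (Spo11, -0.95). From WT to null 0 of 14 were called in either fraction, with medians of 0.20 in THY1+ uSPG and -0.30 in KIT+ dSPG, where 13 of the 14 had negative values. The 8 germ cell markers had medians of 0.31 and -0.25 in the same comparisons. Over both fractions of the Sox3 set 1 was called lower, Sycp3, a protein of the synaptonemal complex (-0.61, adjusted p = 0.00425), and all 14 had negative values with a median of -0.44, beside a median of -0.35 for the 8 germ cell markers, which were all negative too. The part of germ cell content in these values was not tested. Between the Sox3 groups with low Thy1 6 of 14 were called lower, with 4.57% of all genes called lower.

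Among 12 genes of basic helix-loop-helix factors, their ID inhibitors and factors that act with SOHLH proteins, 2 were called higher and 2 lower in KIT+ than in THY1+ in WT of the Zbtb16 set, against 21.2% of all genes called. Lhx8 (1.80, adjusted p = 0.000351 in limma) and Nobox (1.72, adjusted p = 0.000186), homeobox factors best known from oocytes, were higher. Id4, an inhibitor marking undifferentiated spermatogonia (-2.50, adjusted p = 3.50e-06), and Neurog3 (-0.67, adjusted p = 0.0282) were lower. In null 6 were called higher and 2 lower between fractions, and in Sox3 cKO 3 higher and 1 lower. The share of all genes called higher was 7.21% in WT, 13.2% in null and 10.5% in cKO. Neurog3 was the gene of this list called between WT and Zbtb16 null, by -1.22 in THY1+ uSPG (adjusted p = 0.00738) and -1.19 in KIT+ dSPG (adjusted p = 0.0389). Over both fractions of the Sox3 set Neurog3 (-3.86, adjusted p = 8.82e-05) and Lhx8 (-1.53, adjusted p = 0.00175) were called lower and Tcf4 (0.81) and Id2 (0.63) higher. Lhx8 was at 6.20 to 6.87 FPKM in Sox3 WT labelled THY1+ and at 1.36 to 2.42 in cKO KIT+ dSPG.

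Of 8 other DMRT family genes 7 were tested, and Dmrt2 was the one called lower in KIT+ in both genotypes of the Zbtb16 set (-1.31 in WT, adjusted p = 0.000441 in limma, and -1.42 in null) and in Sox3 cKO (-1.16). Dmrtc1b was called higher in WT KIT+ (0.94, adjusted p = 0.0477), and Dmrta1 (1.11) and Dmrta2 (0.92) in null KIT+. In Sox3 cKO Dmrt3 was also called lower in KIT+ (-0.93). Between genotypes 1 of 7 was called higher in null THY1+ uSPG (Dmrtc1b, 1.63), 0 in null KIT+ dSPG and 1 lower in Sox3 cKO over both fractions (Dmrta2, -0.82, adjusted p = 0.0464). Of all genes 3.98%, 0.259% and 10.3% were called there. Both genes were near the floor. Mean Dmrtc1b was 0.165 FPKM in WT and 0.750 in null THY1+ uSPG, and mean Dmrta2 was 0.281 to 0.684 across the groups of the Sox3 set.

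Other genes of differentiating spermatogonia resembled Dmrtb1 or Stra8 in part. Of 9, 4 were called higher and 1 lower in KIT+ than in THY1+ in WT of the Zbtb16 set. Of all genes 21.2% were called there and 7.21% were called higher. The largest rises were those of Ly6k (3.12, adjusted p = 0.000499 in limma) and Prss50 (2.81, adjusted p = 0.00431), with the cyclin Ccnd2 lower (-1.58, adjusted p = 0.000149). Although Ccnd2 was put on this list, the authors found CCND2 protein in a subset of uSPG and not in ZBTB16-negative dSPG. In null the counts were also 4 and 1, with Ly6k at 2.09, Prss50 at 1.70 and Ccnd2 at -1.56, and in Sox3 cKO they were 3 and 1. Of all genes 13.2% were called higher between the null fractions and 10.5% between the cKO fractions. None of the 9 was called between WT and null in either fraction. Over both fractions of the Sox3 set 4 were called lower and 0 higher, among them Ly6k (-1.43, adjusted p = 0.00981) and Rhox13 (-0.80, adjusted p = 0.00251). Of all genes 10.3% were called and 2.83% were called lower. The median of the 9 was -0.62, beside 0.02 over all genes and -0.35 for the 8 germ cell markers. The part of germ cell content in these values was not tested.

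**Figure D4:**
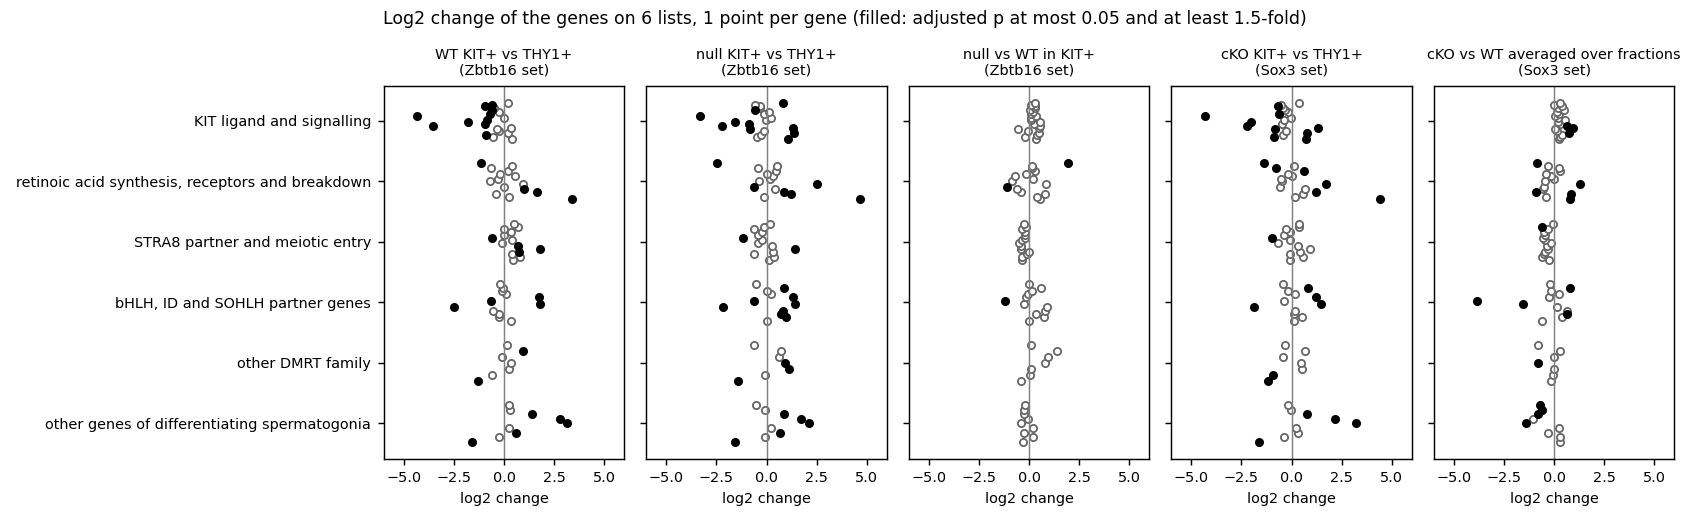
Log2 change (horizontal axis, scale of log2(FPKM + 0.1)) of each tested gene on 6 lists (rows) in 5 comparisons (panels), 1 point per gene; filled points passed an adjusted p of 0.05 and 1.5-fold. In the comparison of Zbtb16 null with WT in KIT+ the filled points are 3 genes, Rxrg at 1.95, Cyp26a1 at -1.08 and Neurog3 at -1.19.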

How the data were processed

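The deposited values are FPKM, computed by the authors with USeq from Novoalign alignments to mm10 of stranded, ribosomal RNA depleted, 50-base single reads, in 1 table per set. The strand used in counting was not given in the sources used here. FPKM are not counts, so limma 3.58.1 (R 4.3.3) replaced the DESeq2 test of the authors. Testing was on log2(FPKM + 0.1) for genes averaging 0.1 FPKM or more across the 12 libraries of their set, with 4 group means in 1 fit, empirical Bayes moderation with trend and robust settings, two-sided tests and Benjamini-Hochberg adjustment. A pseudocount of 0.1 understates changes of low genes. The test was checked on simulated data. Reads were estimated from the steps of low FPKM values. Groups came from the labels alone. The labels do not say which libraries came from separate animals, so p-values measure the spread between libraries. The 6 members, the gene lists and the marker lists were chosen with earlier results of these data known. Besides the members, the text names, by rule, up to 2 called genes per direction with the largest change on each list, the markers of sort and genotype, and the 3 genes most like each member among those with a mean of at least 1 FPKM in both tables, of which 2 are not reported here. Promoters came from RefSeq and gene models from GENCODE M21.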

Additional observations from a re-analysis of the deposited data

How the results depend on the processing

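The 48 results of 6 members in 8 comparisons were recomputed under 846 alternatives: 780 kept their direction and call, 49 changed sign, 8 lost the call and 9 gained it. The calls of Kit and Dmrtb1 between fractions, and of Stra8 between WT fractions, held under every alternative run. No change of sign concerned a called value. The comparisons between Sox3 groups with like Thy1 were chosen after the data were seen. Leaving out 1 library can leave 2 in a group, and depth limits Dmrtb1 most.

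With values taken relative to the germ cell mean, some that were not called changed sign. Sohlh1 then stood at 0.52 between null fractions, 0.36 in the interaction, 0.29 between cKO fractions and 0.017 in the difference of the like-Thy1 changes. Sohlh2 stood at 0.52 between null fractions, -0.11 from WT to null in THY1+ and 0.0085 in the interaction. Dmrt1 stood at -0.19 and 0.18 from WT to null in THY1+ and KIT+, 0.38 in the interaction and 0.19 between cKO fractions. Dmrtb1 stood at -0.25 from WT to null in THY1+ and 0.087 from Sox3 WT to cKO. Members called were then 4 between null fractions, 0 from Sox3 WT to cKO and 1 between the groups with low Thy1.

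With libraries scaled to equal medians, Kit stood at 0.055 and -0.091 from WT to null in THY1+ and KIT+, -0.15 in the interaction, -0.079 from Sox3 WT to cKO, -0.14 and -0.015 between the groups with low and high Thy1 and -0.13 in their difference. Sohlh1 stood at 0.0047 from WT to null in THY1+, Dmrt1 at -0.032 between null fractions and Dmrtb1 at -0.026 in the interaction. Members called from Sox3 WT to cKO were then 4, with Sohlh2 at -0.68 and Dmrt1 at -0.59. With quantile normalization Sohlh1 stood at -0.032 between WT fractions, Dmrt1 at 0.0079 from WT to null in KIT+ and 0.0047 in the interaction, and Sohlh2 at -0.024 between cKO fractions. Members called from Sox3 WT to cKO were then 1, Sohlh1 being at -0.45. With replicates 2 and 3 alone Kit stood at -0.056 between the groups with high Thy1, and members called were 1 from Sox3 WT to cKO and 1 between the groups with low Thy1.

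Leaving out each library in turn, the following values, none of them called, lay on both sides of 0. Kit ranged from -0.18 to 0.12 and from -0.17 to 0.13 from WT to null in THY1+ and KIT+, from -0.12 to 0.20 in the interaction, from -0.018 to 0.19 from Sox3 WT to cKO, from -0.082 to 0.32 and from -0.060 to 0.20 between the groups with low and high Thy1, and from -0.14 to 0.28 in their difference. Stra8 ranged from -0.32 to 0.027 from WT to null in THY1+, and Sohlh1 from -0.034 to 0.18 between WT fractions. Sohlh2 ranged from -0.14 to 0.058 between null fractions and from -0.13 to 0.10 between cKO fractions. Dmrt1 ranged from -0.069 to 0.10 between null fractions and from -0.055 to 0.012 from WT to null in KIT+. Dmrtb1 ranged from -0.079 to 0.20 from WT to null in THY1+ and from -0.011 to 0.51 in the interaction. Members called from Sox3 WT to cKO ranged from 1 to 3.

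Counts over all genes, which are the background of the members' counts, moved more. All genes called were 296 to 824 from WT to null in THY1+ when 1 library was left out, the lowest without null THY1+ replicate 1. They were 25 to 37 in KIT+. In the interaction they were 1 to 867, the highest without null KIT+ replicate 1. A pseudocount of 1 gave 2883 and 4070 between WT and null fractions, 565 and 25 from WT to null in THY1+ and KIT+, 45 in the interaction and 1024 from Sox3 WT to cKO. A filter at 1 FPKM gave 3139, 4332 and 468 in the first 3 of these. Scaling to germ cell markers gave all genes called of 10752 between null fractions, 2597 and 88 from WT to null in THY1+ and KIT+, 4386 in the interaction and 5550 from Sox3 WT to cKO. The 6 libraries of the groups compared alone gave 2 from WT to null in KIT+. Replicates 2 and 3 alone gave 2480 between cKO fractions and 597 from Sox3 WT to cKO.

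Libraries with the same replicate number deviated together at r over 0.1 in 16 of 18 pairs of the Zbtb16 set (mean r 0.399). In the Sox3 set they did so in 14 of 18 pairs (mean r 0.181). Libraries of the same number thus shared part of their deviation. Not every pair passed and the labels do not explain the numbers, so the main fit did not use them. In the main fit this shared part therefore stays within the spread against which the changes were tested. With the replicate block as a term, members called were 1 in each of the comparison from WT to null in KIT+ and the interaction, namely Stra8 (adjusted p = 0.0225 and 0.0342 in limma), and all genes called were 1980 and 513 from WT to null in THY1+ and KIT+ and 2756 in the interaction. The block changed no other call of a member.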
